A study of Mus musculus with 4 samples.

Results

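Basophil and eosinophil lineage genes were followed in cultures of mouse bone marrow-derived macrophage-like cells (BMMs). The 10 genes were chosen for their roles in these lineages and taken by symbol from a table of 23920 genes: *Gata2*, *Mcpt8*, *Hdc*, *Fcer1a*, *Ccr3*, *Il5ra*, *Siglec5*, *Prg2*, *Ear2* and *Ear11*. Bulk RNA sequencing was performed on 4 libraries, 1 per condition, at 24 h according to the labels. *Stat5* cKO cells were cultured with M-CSF, RANKL and IL-3 together. Control *Stat5* fl/fl cells were cultured with the same 3 cytokines, with M-CSF and RANKL, or with M-CSF only. M-CSF was used at 30 ng/mL, RANKL at 100 ng/mL and IL-3 at 1 ng/mL throughout. The cKO mice carried floxed *Stat5a* and *Stat5b* and an Mx1-Cre transgene, whose promoter responds to type I interferon and is not limited to macrophages or osteoclasts. The fl/fl littermates carried the floxed genes without Cre, and poly I:C, which induces the promoter, was given to both genotypes. All mice were C57BL/6, labelled male and aged 8 weeks, whereas the methods give a younger age for osteoclast cultures. BMMs were made by growing marrow in M-CSF and discarding non-adherent cells. No cKO culture without IL-3 was analysed here, so an effect of the deletion by itself and an effect on the response to IL-3 cannot be told apart.

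Basophils and eosinophils are rare granulocytes of the bone marrow, and IL-3 is a growth factor for both lineages and for mast cells. The IL-3 receptor shares its beta chain with the receptors for IL-5 and GM-CSF, and all of them signal through STAT5. Mature basophils are known by surface IgE receptor, histamine and the protease encoded by *Mcpt8*, and eosinophils by the IL-5 receptor, the eotaxin receptor, Siglec-F and toxic granule proteins. Several of these genes are also transcribed in other myeloid cells: ribonucleases of the *Ear* family and Siglec-F, for example, are made by some macrophages.

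The values are FPKM, fragments per kilobase of transcript and per M mapped fragments, summed over the transcripts of a gene. Low values fell on steps of whole fragments, which gave an estimated depth of 38.3 M fragments for the cKO library, 37.9 M for the fl/fl RANKL + IL-3 library, 36.4 M for RANKL and 34.7 M for M-CSF. Every bracketed 95% interval below is exact, for the Poisson count or for the split of fragments between 2 libraries, and covers counting error only. With 1 library per condition, variation between cultures or mice was not measured and no test between conditions could be made. The targeted genes matched the labels. *Stat5a* was at 0.168 FPKM in the cKO library against 12.0 FPKM in the fl/fl RANKL + IL-3 library, and *Stat5b* was at 0.191 FPKM against 8.86 FPKM. The labelled sex did not match: *Xist* was at 31.9 to 47.0 FPKM and 4 of 4 Y-linked genes looked up (*Ddx3y*, *Eif2s3y*, *Kdm5d*, *Uty*) were listed at 0 in all 4 libraries. The libraries did not differ from each other in this. The labelled cell type was osteoclast, and osteoclast precursor for the M-CSF library. It was checked with 8 osteoclast markers. Their summed level was 433 FPKM in the cKO library, 122 FPKM in the fl/fl RANKL + IL-3 library, 1119 FPKM with RANKL and 30.9 FPKM with M-CSF. A summed 8474 to 22816 FPKM for 9 macrophage markers was present in every library. *Lyz2* alone made up most of it, at 7176 to 19887 FPKM, and *Csf1r* stood at 227 to 670 FPKM.

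Single genes of the basophil and eosinophil lineages stood higher with IL-3 in fl/fl cells. Of further eosinophil genes, 14 of 16 stayed under 1 FPKM in every library, as did 9 of 18 further basophil genes. Of all 23920 genes in the table, 10763 reached 1 FPKM in at least 1 library, with small RNA genes left out. The basophil share was thus near that of all genes. *Ear11*, *Siglec5*, *Mcpt8* and *Ear2* were 2-fold or more higher with IL-3 on the log2(FPKM + 1) scale. By FPKM ratio alone *Hdc* was also higher, *Gata2* and *Ccr3* were lower, and the *Prg2* ratio had an interval that included no difference. *Fcer1a* was listed at 0 in every library, and *Il5ra* had at most 2 fragments in any. All 10 genes had low levels. *Fcer1a* and *Il5ra* stayed under 1 FPKM in all libraries, and *Ear11* in the fl/fl RANKL + IL-3 library was the only value above 5 FPKM. The 10 genes summed to 6.83 FPKM in the cKO library, 24.6 FPKM in the fl/fl RANKL + IL-3 library, 8.50 FPKM with RANKL and 8.89 FPKM with M-CSF. *Ear11* alone made up 53.7% of the sum in the fl/fl RANKL + IL-3 library, and without it the sum was 6.67 FPKM in the cKO library, 11.4 FPKM in the fl/fl RANKL + IL-3 library, 8.05 FPKM with RANKL and 7.53 FPKM with M-CSF. In bulk RNA, more cells of a lineage and more RNA per cell cannot be told apart.

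**Figure D1:**
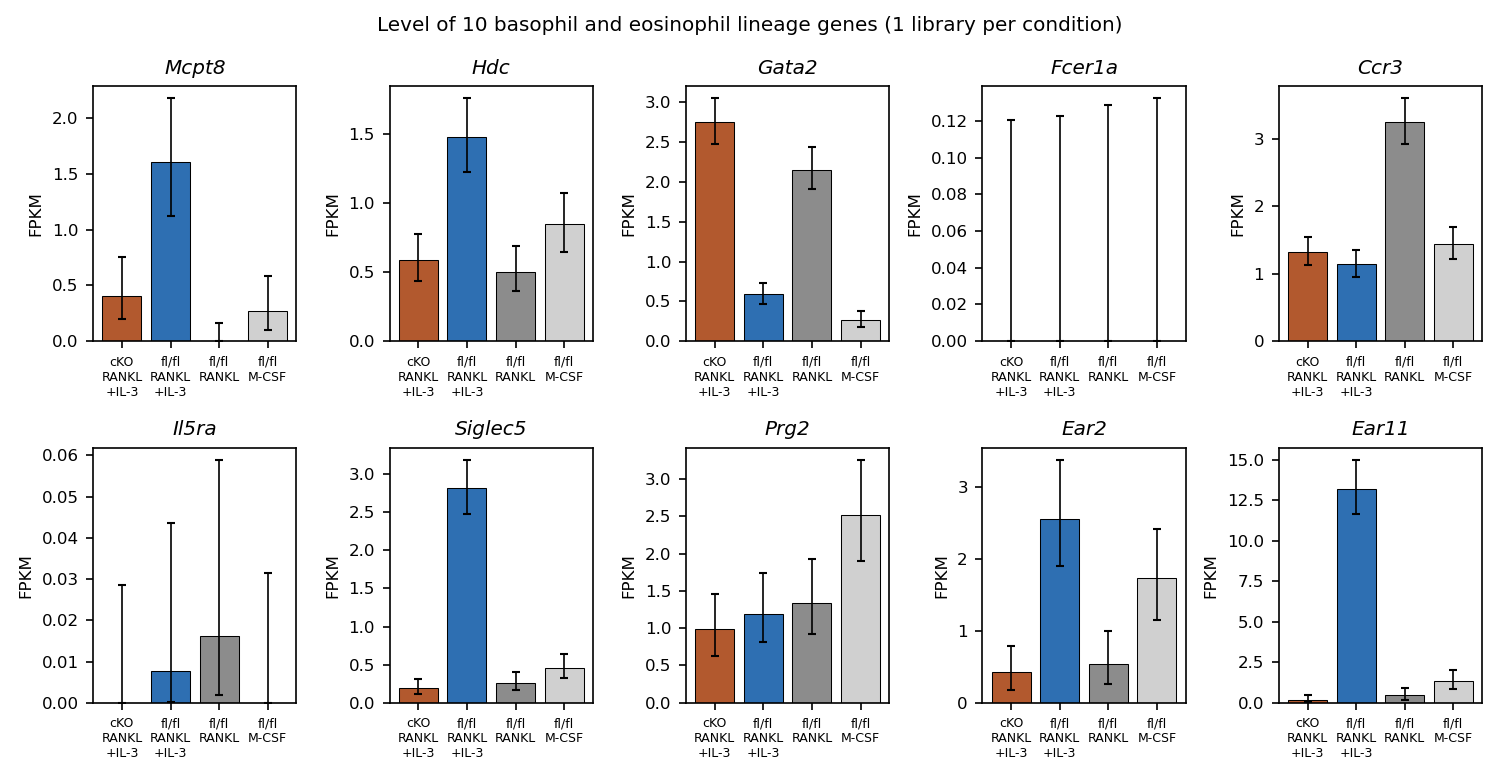
FPKM of each of the 10 genes in the 4 libraries (cKO with RANKL and IL-3, then fl/fl with RANKL and IL-3, RANKL, and M-CSF), with bars for the value and lines for the 95% Poisson interval of the estimated fragments. Scales differ between panels: *Ear11* reached 13.2 FPKM, *Il5ra* did not pass 0.0161 FPKM, and *Fcer1a* was listed at 0 throughout, where only the upper interval bound is drawn.

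*Ear11* had the highest level of the 10 genes, and proximal promoters of the *Ear* family are shown because *Ear11*, *Ear2* and a further family member, *Ear5*, were each highest in the fl/fl RANKL + IL-3 library. *Ear11* (*Rnase2a* in RefSeq) lies at chr14:51255261-51256112 and *Ear2* at chr14:44102654-44103531, in the GRCm38.p6 build, which is mm10. In the RefSeq windows of 250 bases before each start, *Ear11* and *Ear5* were 84.4% identical, *Ear2* and *Ear5* 82.8%, and *Ear11* and *Ear2* 71.6%. Capitals mark a run of 25 bases that all 3 share exactly, which ends 96 bases before the start in *Ear11*, 52 in *Ear2* and 80 in *Ear5*. The stretches are at chr14:51256178-51256262 on the minus strand for *Ear11*, at chr14:44102548-44102632 on the plus strand for *Ear2* and at chr14:51162126-51162210 on the plus strand for *Ear5*, each written 5′ to 3′ toward its gene.
Ear11: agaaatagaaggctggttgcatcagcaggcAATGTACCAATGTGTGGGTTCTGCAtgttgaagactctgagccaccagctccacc
Ear2: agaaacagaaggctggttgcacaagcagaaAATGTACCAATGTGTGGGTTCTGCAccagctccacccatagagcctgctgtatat
Ear5: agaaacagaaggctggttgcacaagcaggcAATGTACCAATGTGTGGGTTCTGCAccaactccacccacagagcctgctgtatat
The run occurred in 4 of 32851 promoter windows of the genome, and the fourth was that of *Ear1*. *Ear1* carries it too but was at 0.154 FPKM in the cKO library, listed at 0 in the fl/fl RANKL + IL-3 library, and at 0.216 FPKM with RANKL and 0.225 FPKM with M-CSF. These *Ear1* levels are uncertain, since its transcript is 96.1% identical to that of *Ear2*. A shared run describes the sequences and was not tied to any level.

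A further set of promoter stretches is shown because GATA factors, *Gata2* among them, are known regulators of both lineages. They belong to receptor genes and carry the letters of the GATA motif, AGATAA, searched on both strands in windows of 250 bases before to 50 bases after the start. It was present in 3 of the 10 windows of the members, which belong to 9 genes, against 11.2% of all 32851 windows. So few windows cannot show an enrichment. The matches begin 92 bases before the start in *Fcer1a* (chr1:173227296-173227341, minus strand, read as TTATCT), 30 bases before it in *Ccr3* (chr9:124021921-124021966, plus strand) and 74 bases before it in *Il5ra* (chr6:106749086-106749131, minus strand). The start used for *Ccr3* lies inside the RefSeq span of the gene. Capitals mark the match.
Fcer1a: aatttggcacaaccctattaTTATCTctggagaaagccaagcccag
Ccr3: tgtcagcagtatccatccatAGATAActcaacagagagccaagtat
Il5ra: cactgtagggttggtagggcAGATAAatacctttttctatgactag
The STAT-type spacing TTCNNNGAA was in 0 of the 10 windows of the members, against 8.30% of all windows, which says only that these letters are not there.

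Differences between libraries were taken on the log2(FPKM + 1) scale, which understates the change of low genes, over the 10763 genes whose highest library reached 1 FPKM. Genes 2-fold or more apart on that scale were counted. Of the 10 genes, 8 reached the minimum, and *Mcpt8*, *Hdc* and *Siglec5* did so only through the fl/fl RANKL + IL-3 library. Those 3 were therefore bound to stand highest there, and no count or median over the 8 supports a shift of the set.

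With IL-3, in fl/fl cells given RANKL, 4 of the genes stood at least 2-fold higher than with RANKL alone: *Ear11*, *Siglec5*, *Mcpt8* and *Ear2*. The share of all tested genes at least 2-fold higher was 6.11%, or 658 genes. None of the 10 was at least 2-fold lower, against 3.47% of tested genes, although *Gata2* and *Ccr3* lay just inside that limit. The median log2 difference of the 8 genes was 0.97, against -0.15 over all tested genes, with *Mcpt8*, *Hdc* and *Siglec5*, bound to be high with IL-3, among the 8. In cKO cells compared with fl/fl cells, both with RANKL and IL-3, 3 were at least 2-fold lower (*Ear11*, *Siglec5*, *Ear2*), against 4.28% of tested genes, and *Gata2* was higher, against 2.11%. The median log2 difference of the same 8 genes there was -0.76, against 0.13 over all tested genes, and carries the same limit. The fl/fl RANKL + IL-3 library is part of both comparisons, so the genes that are high in it tend to be higher in the first comparison and lower in the second. With RANKL compared with M-CSF in fl/fl cells, *Gata2* was the only gene called, as higher, against 5.44% of tested genes. None was lower, against 6.88%, and the median was -0.32, against 0.14 over all tested genes.

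**Figure D2:**
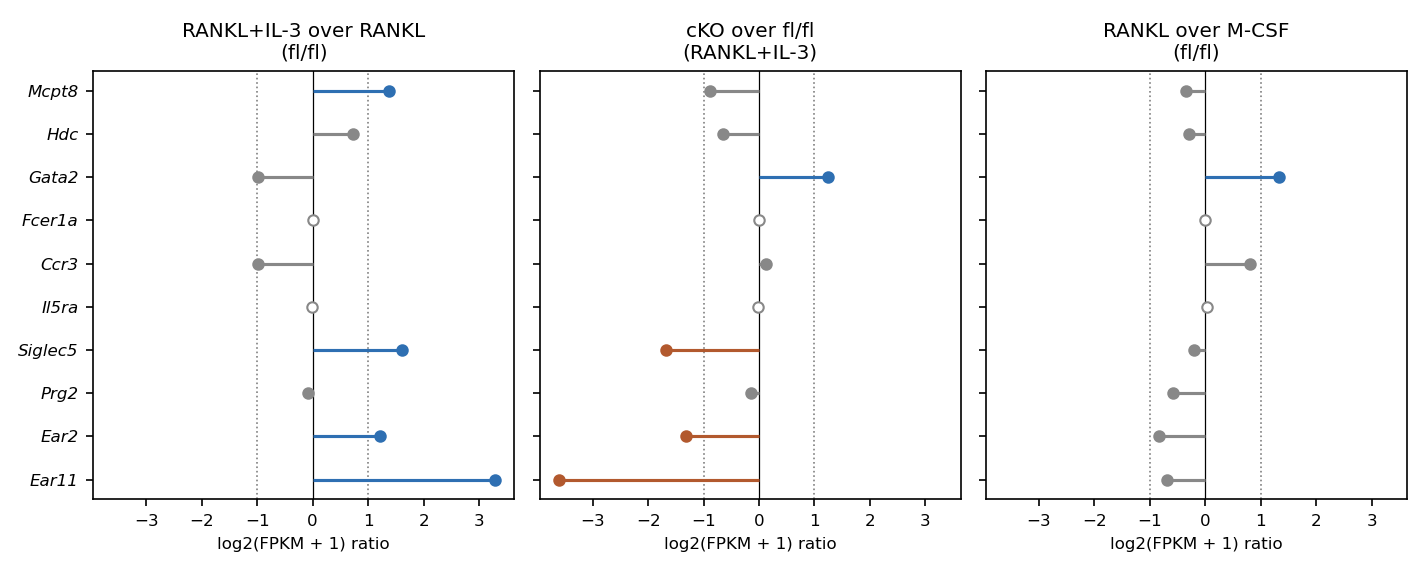
Difference of each gene on the log2(FPKM + 1) scale, with the IL-3, cKO and RANKL comparisons in separate panels, with dotted lines at 2-fold and open points for genes under 1 FPKM in all libraries. *Ear11* lies at 3.29 with IL-3 and -3.61 in cKO, and *Gata2* runs opposite to it at -0.99 and 1.24.

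*Gata2* (chr6:88193891-88207032) encodes a zinc-finger transcription factor that blood stem cells, mast cells and basophils need. It was at 2.75 FPKM in the cKO library, 0.588 FPKM in the fl/fl RANKL + IL-3 library, 2.15 FPKM with RANKL and 0.263 FPKM with M-CSF. The gene was therefore high in cKO cells with IL-3 and in fl/fl cells with RANKL, and low in fl/fl cells with IL-3 or with M-CSF only. RANKL against M-CSF gave 8.20-fold more (5.64 to 12.3), cKO against fl/fl 4.67-fold more (3.63 to 6.07), and IL-3 against RANKL 3.66-fold less (2.82 to 4.80). On the log2(FPKM + 1) scale these were 1.32, 1.24 and -0.99. Among the 10 genes it was the only one called higher with RANKL and in cKO cells. Of 8 osteoclast markers, 6 reached 1 FPKM. All 6 were called higher with RANKL than M-CSF, against 5.44% of all tested genes, and lower with IL-3, against 3.47%. In cKO cells 4 of the 6 were called higher, against 2.11%. The sum of the osteoclast markers was highest with RANKL and not in cKO cells. Their part in the *Gata2* levels was not tested.

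*Mcpt8* (chr14:56082163-56085499) encodes mast cell protease 8, a granule serine protease used as a basophil marker in the mouse. It was at 0.410 FPKM in the cKO library (10 fragments), 1.61 FPKM in the fl/fl RANKL + IL-3 library (38 fragments), listed at 0 with RANKL, and at 0.270 FPKM with M-CSF (6 fragments). Only the fl/fl library with IL-3 was above 1 FPKM, with an interval of 1.12 to 2.18 FPKM. At the RANKL library's depth 3 fragments would be 0.132 FPKM, and the 95% interval for the listed 0 reaches up to 0.162 FPKM. The difference with IL-3 was 1.38 on the log2(FPKM + 1) scale. The cKO level was 3.92-fold lower than the fl/fl level with IL-3 (1.91 to 8.81), or -0.89 on the log2(FPKM + 1) scale, which is inside the 2-fold limit.

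*Hdc* (chr2:126593659-126624025) encodes histidine decarboxylase, the enzyme that makes histamine. It was at 0.587 FPKM in the cKO library, 1.48 FPKM in the fl/fl RANKL + IL-3 library, 0.504 FPKM with RANKL and 0.845 FPKM with M-CSF. As for *Ear2* and *Siglec5*, the fl/fl RANKL + IL-3 library was highest, followed by M-CSF, and the cKO and RANKL libraries were lowest, with intervals that overlap (0.432 to 0.772 FPKM in cKO and 0.360 to 0.686 FPKM with RANKL). IL-3 against RANKL was 2.93-fold (2.03 to 4.30) in FPKM and 0.72 on the log2(FPKM + 1) scale, and cKO was 2.51-fold lower (1.79 to 3.58) and -0.64. Neither reached 2-fold on the log2(FPKM + 1) scale, and both did with 0.1 FPKM added in place of 1.

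None of the receptor genes *Fcer1a*, *Il5ra* and *Ccr3* stood higher with IL-3. *Fcer1a* (chr1:173221269-173227232), the alpha chain of the high-affinity IgE receptor, was listed at 0 in all 4 libraries, where 3 fragments would be 0.0982 to 0.108 FPKM. *Il5ra* (chr6:106710375-106749037), the alpha chain of the IL-5 receptor, was listed at 0 in the cKO library, at 0.00773 FPKM in the fl/fl RANKL + IL-3 library (1 fragment), at 0.0161 FPKM with RANKL (2 fragments) and at 0 with M-CSF. Neither receptor chain reached 3 fragments in any library. *Ccr3* (chr9:124017825-124031692), the eotaxin receptor of eosinophils and basophils, was at 1.33 FPKM in the cKO library, 1.14 FPKM in the fl/fl RANKL + IL-3 library, 3.24 FPKM with RANKL and 1.44 FPKM with M-CSF. It was highest with RANKL alone, 2.25-fold above M-CSF (1.86 to 2.73). With IL-3 it was 2.84-fold lower than with RANKL (2.32 to 3.49), at -0.99 on the log2(FPKM + 1) scale. Between cKO and fl/fl cells with IL-3 it was 1.16-fold (0.915 to 1.47), and the interval includes no difference.

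*Siglec5*, named *Siglecf* in RefSeq (chr7:43351341-43359475), encodes Siglec-F, an inhibitory sialic acid receptor of eosinophils and alveolar macrophages. It was at 0.190 FPKM in the cKO library (17 fragments), 2.82 FPKM in the fl/fl RANKL + IL-3 library (246 fragments), 0.257 FPKM with RANKL (22 fragments) and 0.458 FPKM with M-CSF (37 fragments). The fl/fl library with IL-3 stood apart from the other 3. IL-3 against RANKL was 10.96-fold (7.08 to 17.8), or 1.60 on the log2(FPKM + 1) scale, and cKO was 14.8-fold lower (9.08 to 25.9), or -1.68. The cKO interval of 0.112 to 0.308 FPKM overlapped the RANKL interval of 0.165 to 0.398 FPKM. Of 8 other Siglec genes, 6 reached 1 FPKM. Among these, 2 were called higher with IL-3, against 6.11% of all tested genes: *Siglec1* at 1.64 and *Cd33* at 2.22 on the log2(FPKM + 1) scale. In cKO cells 2 were lower, against 4.28%: *Cd33* at -2.28 and *Cd22* at -1.07. *Cd22* reached 1 FPKM only in the fl/fl RANKL + IL-3 library and so had to be highest there. *Siglece*, an inhibitory receptor of neutrophils and macrophages, was at 2.32 FPKM in the cKO library, 1.99 FPKM in the fl/fl RANKL + IL-3 library, 2.10 FPKM with RANKL and 5.204 FPKM with M-CSF, where it was highest.

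The granule proteins of eosinophils parted in their course. *Prg2* (chr2:84980461-84983632), which encodes major basic protein, was at 0.984 FPKM in the cKO library, 1.19 FPKM in the fl/fl RANKL + IL-3 library, 1.34 FPKM with RANKL and 2.52 FPKM with M-CSF. IL-3 against RANKL was 1.12-fold lower (0.652 to 1.92) and cKO against fl/fl 1.21-fold lower (0.682 to 2.18), and both intervals include no difference. RANKL was 1.89-fold lower than M-CSF (1.20 to 3.03).

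*Ear11* encodes a ribonuclease of the eosinophil-associated family, secreted by eosinophils and by some activated macrophages. It was at 0.161 FPKM in the cKO library (3 fragments), 13.2 FPKM in the fl/fl RANKL + IL-3 library (243 fragments), 0.452 FPKM with RANKL (8 fragments) and 1.35 FPKM with M-CSF (23 fragments). IL-3 against RANKL was 29.2-fold (14.6 to 68.4) in FPKM and 3.29 on the log2(FPKM + 1) scale, rank 43 from the highest of 10763 genes. The cKO level was 81.9-fold lower than the fl/fl level with IL-3 (27.7 to 400.1), at -3.61, rank 17 from the lowest. The width of that interval comes from the 3 fragments of the cKO library. The cKO interval of 0.0330 to 0.467 FPKM overlapped that of RANKL, 0.198 to 0.902 FPKM. M-CSF alone held more *Ear11* than RANKL, which was 2.99-fold lower (1.29 to 7.74).

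*Ear2*, a second ribonuclease of the same family, was at 0.427 FPKM in the cKO library (8 fragments), 2.56 FPKM in the fl/fl RANKL + IL-3 library (50 fragments), 0.536 FPKM with RANKL (10 fragments) and 1.73 FPKM with M-CSF (31 fragments). The libraries took the same order as for *Ear11*, but the fl/fl RANKL + IL-3 interval of 1.91 to 3.38 FPKM overlapped the M-CSF interval of 1.16 to 2.42 FPKM. IL-3 against RANKL was 4.77-fold (2.39 to 10.5), or 1.21 on the log2(FPKM + 1) scale, and cKO was 5.99-fold lower (2.82 to 14.6), or -1.32. The *Ear2* level is uncertain, since its transcript is 96.1% identical to that of *Ear1* and 37.6% of its 50-nt windows occur in another *Ear* transcript of GENCODE M21. For *Ear11* and *Ear5* the share was 0 of 641 and 0 of 710 windows, and *Ear11* and *Ear2* transcripts were 79.3% identical. *Ear5* was listed at 0 in the cKO library and was at 2.40 FPKM in the fl/fl RANKL + IL-3 library, 0.247 FPKM with RANKL and 1.34 FPKM with M-CSF. Its log2(FPKM + 1) difference was 1.45 for IL-3 and -1.77 for cKO.

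Of 9 genes of the ribonuclease A superfamily outside the *Ear* genes, 3 reached 1 FPKM. These 3 (*Ang*, *Rnase4* and *Rnase6*) were called higher for IL-3, lower for cKO and lower for RANKL against M-CSF. The shares over all tested genes were 6.11%, 4.28% and 6.88%. *Rnase6*, which encodes an antimicrobial ribonuclease of myeloid cells, was at 2.18 FPKM in the cKO library, 8.29 FPKM in the fl/fl RANKL + IL-3 library, 2.07 FPKM with RANKL and 11.6 FPKM with M-CSF. Its highest level was with M-CSF, unlike that of *Ear11*.

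Companion genes were then read to see how far each lineage was represented. Of 16 further eosinophil genes, 14 were under 1 FPKM in all libraries. *Epx*, which encodes eosinophil peroxidase, was at 0.114 FPKM in the cKO library, 0.146 FPKM in the fl/fl RANKL + IL-3 library, 0.0759 FPKM with RANKL and 0.0574 FPKM with M-CSF. *Prg3*, a homologue of major basic protein, stood at 0.0350 to 0.110 FPKM, and *Gata1*, the transcription factor that eosinophils require, at 0.0456 to 0.0840 FPKM. These defining genes stayed far under 1 FPKM in every library. Only *Ear5* was called with IL-3 and in cKO cells. *Cebpe*, a transcription factor of late granulocyte maturation, was at 4.30 FPKM in the cKO library, 4.38 FPKM in the fl/fl RANKL + IL-3 library, 3.02 FPKM with RANKL and 2.79 FPKM with M-CSF.

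The share under 1 FPKM in all libraries was near that of the whole table for 18 further basophil genes, of which 9 were under it. Among these were *Prss34*, a basophil and mast cell protease listed at 0 in the cKO library and at 0.180 FPKM in the fl/fl RANKL + IL-3 library, 0.349 FPKM with RANKL and 0.423 FPKM with M-CSF. *Ms4a2*, the beta chain of the IgE receptor, did not pass 0.0913 FPKM, nor *Cpa3*, a granule carboxypeptidase, 0.0914 FPKM. *Il4*, the cytokine by which basophils act on T cells, was at 0.414 FPKM in the fl/fl RANKL + IL-3 library and listed at 0 in the other 3, and *Il13* was at 0.0260 FPKM there and likewise at 0 in the others. *Osm*, *Il1rl1* and *Hgf* were called higher for IL-3 and lower for cKO, against 6.11% and 4.28% of all tested genes. *Osm*, which encodes the cytokine oncostatin M, was at 2.77 FPKM in the cKO library, 23.8 FPKM in the fl/fl RANKL + IL-3 library, 3.27 FPKM with RANKL and 5.09 FPKM with M-CSF. *Il1rl1*, the IL-33 receptor, was at 1.19 FPKM in the cKO library, 5.69 FPKM in the fl/fl RANKL + IL-3 library, 0.561 FPKM with RANKL and 2.62 FPKM with M-CSF. None of these 3 belongs to basophils alone, and macrophages are known to make oncostatin M. Over the other 9 basophil genes, those that did reach 1 FPKM, the median was 0.82 with IL-3, against -0.15 over all tested genes. In cKO it was -0.83, against 0.13. The IL-3 median was the value of *Fcer1g*, a chain shared with Fc gamma receptors, and the cKO median that of *Il18rap*. The genes under 1 FPKM, *Prss34*, *Ms4a2*, *Cpa3* and *Il4* among them, are not part of these medians. These medians therefore cannot show a shift of the basophil lineage.

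Of 8 histamine genes other than *Hdc*, *Hnmt*, which inactivates histamine, was the only one above 1 FPKM, at 6.29 FPKM in the cKO library, 8.07 FPKM in the fl/fl RANKL + IL-3 library, 8.53 FPKM with RANKL and 8.88 FPKM with M-CSF. *Slc18a2*, which loads histamine into granules, stood between 0.436 and 0.531 FPKM. No histamine gene was called in any comparison.

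Mast cells share IL-3 dependence with basophils, and of 15 mast cell markers 14 were under 1 FPKM throughout. The proteases *Mcpt4*, *Cma1* and *Tpsb2* were listed at 0 in all 4 libraries, and *Kit*, the stem cell factor receptor, stood between 0.168 and 0.322 FPKM. *Hpgds*, a prostaglandin D2 synthase that macrophages also express, was the exception, at 6.94 FPKM in the cKO library, 15.9 FPKM in the fl/fl RANKL + IL-3 library, 4.34 FPKM with RANKL and 33.5 FPKM with M-CSF. It was highest with M-CSF alone.

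Neutrophil transcripts, in contrast, were present in every library. All 16 neutrophil markers passed the minimum and summed to 947 FPKM in the cKO library, 1328 FPKM in the fl/fl RANKL + IL-3 library, 989 FPKM with RANKL and 1423 FPKM with M-CSF. *Mpo*, myeloperoxidase of primary granules, was at 24.4 FPKM in the cKO library, 38.2 FPKM in the fl/fl RANKL + IL-3 library, 23.6 FPKM with RANKL and 30.3 FPKM with M-CSF. The median log2 difference of the list was 0.37 with IL-3, against -0.15 over all tested genes, and -0.40 in cKO, against 0.13. *Mmp8*, neutrophil collagenase, was the exception with 8.42 FPKM in the cKO library, 143 FPKM in the fl/fl RANKL + IL-3 library, 8.90 FPKM with RANKL and 20.9 FPKM with M-CSF. *Mmp9*, which is also an osteoclast marker, was called lower for IL-3 and higher for cKO. It was at 106 FPKM in the cKO library, 24.0 FPKM in the fl/fl RANKL + IL-3 library, 182 FPKM with RANKL and 10.1 FPKM with M-CSF. The sums above came largely from *S100a8*, with 275 to 513 FPKM across the libraries, and *S100a9*, with 291 to 500 FPKM. Each library had its highest levels of the 16 markers in these genes, so the sums mainly follow them. The sums also include *Mmp8* and *Mmp9* and so partly follow those. *Elane*, neutrophil elastase, was lower in cKO cells at -1.24. The part that residual granulocytes of the marrow took in the levels of the 10 genes was not tested.

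**Figure D3:**
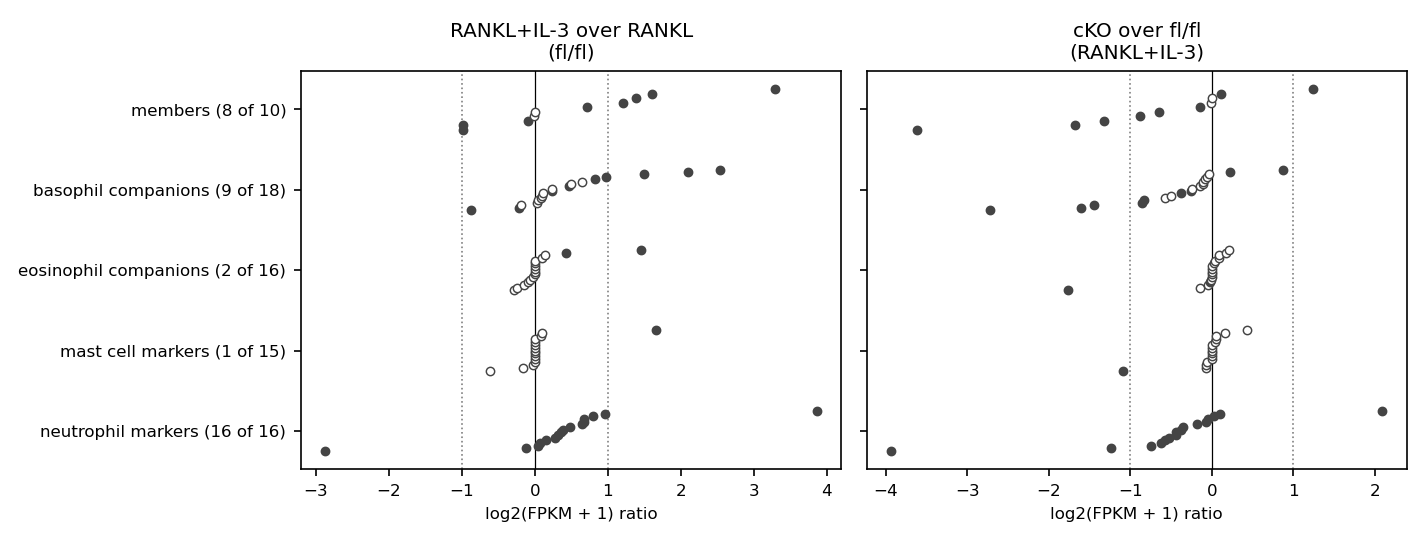
Difference on the log2(FPKM + 1) scale for every gene of 5 lists, with IL-3 on the left and in cKO on the right. Filled points reached 1 FPKM in at least 1 library, open points did not, the numbers beside a list count its filled points out of its genes, and dotted lines mark 2-fold. Eosinophil and mast cell lists are almost all open and within 2-fold, with *Ear5* and *Hpgds* as the filled points beyond 2-fold, whereas all 16 neutrophil markers are filled and 14 of them lie within 2-fold with IL-3.

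Receptor partners and ligands of the 10 genes included abundant transcripts. *Csf2rb*, the beta chain shared by the IL-3, IL-5 and GM-CSF receptors, was at 41.3 FPKM in the cKO library, 165 FPKM in the fl/fl RANKL + IL-3 library, 64.2 FPKM with RANKL and 32.2 FPKM with M-CSF. *Il3ra*, the IL-3 receptor alpha chain, was within 2-fold in every comparison, at 10.5 FPKM in the cKO library, 13.2 FPKM in the fl/fl RANKL + IL-3 library, 11.4 FPKM with RANKL and 17.0 FPKM with M-CSF. *Fcer1g*, the signalling chain that the IgE receptor shares with Fc gamma receptors, stood between 452 and 994 FPKM while *Fcer1a* was listed at 0. Of 5 chemokines that bind CCR3, 3 (*Ccl7*, *Ccl8* and *Ccl24*) were called higher with IL-3, and *Ccl5* and *Ccl11* were not called. *Ccl7* was at 287 FPKM in the cKO library, 2407 FPKM in the fl/fl RANKL + IL-3 library, 13.5 FPKM with RANKL and 461 FPKM with M-CSF. *Ccl24*, the eotaxin-2 gene, was at 0.119 FPKM in the cKO library, 1.44 FPKM in the fl/fl RANKL + IL-3 library, 0.0750 FPKM with RANKL and 0.552 FPKM with M-CSF. *Ccl5*, known also as RANTES, was at 10.4 FPKM in the cKO library, 4.99 FPKM in the fl/fl RANKL + IL-3 library, 6.62 FPKM with RANKL and 5.77 FPKM with M-CSF, and *Ccl11*, the eotaxin gene, did not pass 0.0657 FPKM. Reads of *Csf2rb* and its near-identical neighbour *Csf2rb2* may have been split between them, so both levels are uncertain. Of 12 such genes 4 were called higher for IL-3 and lower for cKO: *Csf2rb*, *Ccl7*, *Ccl8* and *Ccl24*. *Ccl8* and *Ccl24* reached 1 FPKM only in the fl/fl RANKL + IL-3 library and so had to be highest there. The shares over all tested genes were 6.11% higher for IL-3 and 4.28% lower for cKO.

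Of 19 transcription factors of granulocyte development beside *Gata2*, 15 passed the minimum, 7 were called higher with IL-3 and 1, *Mitf*, was called lower, against 6.11% and 3.47% of all tested genes. With RANKL against M-CSF, 8 of the 15 were called lower and 1 higher, against 6.88% and 5.44%. The higher ones included *Cebpb* at 1.97, *Irf8* at 2.64, *Lmo2* at 2.07 and *Bhlhe41* at 2.00 on the log2(FPKM + 1) scale, and these 4 were also lower in cKO cells. *Irf8*, a factor of monocytes and macrophages as well, was at 10.2 FPKM in the cKO library, 38.2 FPKM in the fl/fl RANKL + IL-3 library, 5.30 FPKM with RANKL and 54.3 FPKM with M-CSF. Macrophage markers moved in the same directions, with 5 of 9 called higher for IL-3, 4 of 9 lower for cKO and 8 of 9 lower for RANKL against M-CSF. The shares over all tested genes were 6.11%, 4.28% and 6.88%. The part of these macrophage markers in the *Ear* and *Siglec5* levels was not tested. *Cebpa*, a factor that myeloid cells are known to express, was itself listed at 0.0765 to 0.137 FPKM, so a low listing of 1 gene in this table need not mean that its RNA was missing from the cells.

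The genes whose 3 differences lay closest to those of *Ear11*, by Euclidean distance over the 3 comparisons, were *Tarm1* at 0.35, *Clec7a* at 0.40 and *Scimp* at 0.56. The closest to *Siglec5* were *Plekhg1* at 0.17, *Sidt2* at 0.19 and *Rara* at 0.21, and to *Ear2* *H2-DMb1* at 0.09, *Gpr146* at 0.11 and *Gpr141* at 0.12. *Clec7a* was at 5.15 FPKM in the cKO library, 78.8 FPKM in the fl/fl RANKL + IL-3 library, 5.22 FPKM with RANKL and 9.33 FPKM with M-CSF. Each distance rests on 4 libraries.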

How the data were processed

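Mouse BMMs were sequenced under 4 culture conditions, with 1 library each. The authors made the FPKM values from HiSeq2000 reads of TruSeq RNA libraries and deposited them per RefSeq transcript. The submitters' processing notes name mm10, TopHat2 2.0.13 and Cufflinks 2.2.1, with options not given in the sources used here. No unit is named in the table. That the values are FPKM is an inference from the software named and from their range. Doses were taken from the methods.

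FPKM values were summed per gene ID. The table held 33170 transcripts, and 9 of the 10 members had 1 transcript. Small RNA genes were left out, 46 of which reached the minimum, because short transcripts make FPKM unstable. Genes were called higher or lower at 2-fold or more on log2(FPKM + 1), among 10763 genes reaching 1 FPKM. No replicate existed, so no p-value was computed, and a fold against a library listed at 0 was not given.

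Depth was estimated from single-transcript genes of 1000 nt or more, since the product of FPKM and length rises in steps of 1 fragment. Between 75.9% and 78.1% of low values lay within 0.2 of a whole number of fragments, against 40% for evenly spread values. The step came from the same values, so this is partly built in. A length offset of 195 to 210 nt and the shorter minimum were chosen after the values were seen, in place of 3000 nt and no offset. Intervals are Poisson for levels and Clopper-Pearson for ratios.

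The members and the gene lists were chosen with earlier results of these data known. The named genes are the members, *Stat5a* and *Stat5b*, up to 6 called genes per list and comparison, defining markers under 1 FPKM, and the 3 nearest patterns of members called in both the IL-3 and the cKO comparison. Those the text gives were picked from these with values in view, and *Xist*, the Y-linked genes, *Mpo*, *S100a8*, *S100a9*, *Prg3*, *Hnmt*, *Slc18a2*, *Cebpe*, *Fcer1g*, *Il18rap*, *Il3ra*, *Siglece*, *Cebpa*, *Csf2rb2*, *Ccl5*, *Ccl11* and *Ear1* were added likewise. The entries *Ear3*, *Ear14* and *Ly6g* were not analysed here. Positions and promoter windows came from RefSeq tables of GRCm38.p6, in which 10 and 9 of the members matched, and transcripts from GENCODE M21. Alternatives were another pseudocount, 2 scalings, other minima and thresholds, and the most abundant transcript. The count and ratio steps were tested on simulated data. The software was pandas 2.3.3 with numpy 2.4.6, scipy 1.17.1 for intervals, and matplotlib 3.10.9 for figures, under Python 3.11.15.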

Additional observations from a re-analysis of the deposited data

How the results depend on the processing

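No paired analysis was possible because each condition had 1 library, which also leaves no replicate to leave out. Scaling by the median ratio or the upper quartile, no minimum, and the most abundant transcript per gene called the same members in all 3 comparisons; without scaling, the median of all tested genes lay at -0.15 for IL-3, 0.13 for cKO and 0.14 for RANKL on the log2 scale. With 0.1 FPKM added, 5 members were higher for IL-3 (adding *Hdc*), 2 lower (*Ccr3*, *Gata2*), 5 lower in cKO (adding *Hdc* and *Mcpt8*), 2 higher with RANKL (*Ccr3*, *Gata2*) and 3 lower (*Ear11*, *Ear2*, *Mcpt8*), as this setting weighs low values more. With a minimum of 5 FPKM, 1 member (*Ear11*) was higher for IL-3 and 1, also *Ear11*, lower for cKO, and 0 were higher in cKO or with RANKL, because the other members were no longer tested. At 4-fold, these counts were also 1, 1, 0 and 0. At 1.5-fold, 5 were higher for IL-3 (adding *Hdc*) and 2 lower, 5 lower in cKO, 2 higher with RANKL and 3 lower.

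Among all 10763 tested genes, 0.1 FPKM gave 866 higher and 560 lower for IL-3. It gave 379 higher and 636 lower for cKO, and 808 higher and 989 lower for RANKL. The 4-fold threshold gave 175 higher and 74 lower with IL-3, 34 higher and 108 lower in cKO, and 124 higher and 162 lower with RANKL. The 1.5-fold threshold gave 1303 higher and 1371 lower for IL-3, 907 higher and 957 lower for cKO, and 1680 higher and 1491 lower for RANKL. With a minimum of 5 FPKM, 8442 genes were tested, of which 556 were higher and 296 lower for IL-3. For cKO 183 of them were higher and 374 lower, and for RANKL 478 were higher and 643 lower. No called difference of a member changed sign under any of these alternatives, and the uncalled IL-3 difference of *Prg2* did with median-ratio scaling, at 0.01 against -0.09 unscaled. Steps in genes of 3000 nt with no length offset gave depths of 37.0 M fragments for cKO, 36.8 M for RANKL + IL-3, 35.2 M for RANKL and 33.5 M for M-CSF.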
